A study of Homo sapiens with 14 samples.

Results

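RNA was compared between 2 forms of the transcriptional coactivator MRTFB in MCF-10A cells, an immortalised, non-tumorigenic line of human mammary epithelium, on day 2 after retroviral infection. Both forms carry the dN change, which removes the binding of G-actin, and the substitution Y305A, which removes the binding of the transcription factor SRF. The MRTFB dN Y305A/dPY form lacks in addition the PY motif through which MRTFB binds YAP, so the comparison asks what YAP binding adds once SRF binding is lost. Each form was measured in 2 libraries, paired by replicate number. Among 34071 tabulated loci, 27543 carry a gene name, and the 11230 of these with at least 1 FPKM in at least 2 of the 4 libraries are described here. FPKM counts fragments per length of transcript and size of library. Of these members 10186 reached 1 FPKM in all 4 libraries, 48 reached it in both Y305A libraries and neither Y305A/dPY library, and 54 showed the reverse. ZNF169 was just inside the limit, at 0.522 and 1.10 FPKM in Y305A and 0.547 and 1.00 in Y305A/dPY, and ZNF503-AS2 just outside it, at 0.806 and 1.05 against 0.799 and 0.998. The other groups, of 2 libraries each, are the Hygro and Puro vectors, YAP 5SA (a hyperactive YAP), MRTFB dN, and MRTFB dN dPY, which lacks YAP binding and keeps SRF binding. All forms were introduced on top of the endogenous MRTF and YAP of the line. The labels do not say whether replicates are separate cultures, so p-values measure only the spread between these libraries, which may be technical.

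MRTFs are held inactive by monomeric actin. When actin polymerises they enter the nucleus and, through SRF, switch on genes of the contractile cytoskeleton such as those of smooth muscle actin, transgelin and vinculin. YAP, the effector of the Hippo pathway, has no DNA-binding domain of its own and acts through TEAD factors, with CTGF and CYR61 as its best known target genes. A PY motif is a short stretch with proline and tyrosine that WW domains such as those of YAP bind.

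The MRTFB transcript, listed as MKL2, stood at 404 and 294 FPKM in Y305A replicates 1 and 2, at 610 and 343 in Y305A/dPY, and at 6.60 and 3.66 in the Puro vector. It was higher without the PY motif in both pairs, by 0.41 ± 0.15 on the log2(FPKM + 1) scale (SE, limma adjusted p = 0.311), and the groups overlapped. All log2 fold changes below are on that scale, Y305A/dPY over Y305A, with their SE. Depth relative to Y305A replicate 1 was 1.28 in Y305A replicate 2 and 1.07 and 1.47 in Y305A/dPY, and absolute depth is unknown. The basal epithelial markers KRT5 (1971 to 4364 FPKM) and CDH3 (318 to 355) were high in all 4 libraries, while TP63 stood at 0.545 to 1.22. The keratin genes KRT8 and KRT18 were listed at 0 in replicate 1 of both forms and at 9623 to 16610 FPKM in replicate 2, so a listed 0 can be a failed estimate. In MRTFB dN dPY replicate 1, parts of the table that hold 1564 of the members are empty and were treated as missing.

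Few genes passed the test between the 2 forms. At an adjusted p under 0.05 (limma on the 8 MRTFB libraries with the replicate number as a block) 11 members fell on loss of the PY motif, 0.098% of all members, and 2 rose, 0.0178%. Of these 13, both that rose and 1 that fell are short RNA loci that are members only through the form in which they have values, so they had to differ, and nothing is read from their calls. At an unadjusted p under 0.05 there were 1031 lower (9.18%) and 550 higher (4.9%). Both Y305A/dPY libraries lay below both Y305A libraries for 1734 members (15.4%) and above both for 1387 (12.4%). The median size of the log2 fold change, averaged over the pairs, was 0.181. The median difference between replicates was 0.36 in Y305A and 0.395 in Y305A/dPY. The latter are single differences over the 9666 members with values in all 8 libraries. They correlated between the 2 forms with a Pearson r of 0.747, and the block removes the shared part. These sizes are therefore not a measure of effect against noise. By the fitted value 144 members were lower by at least 1 on the log2 scale and 86 higher. Across the 11230 members the log2 fold changes of pair 1 and pair 2 had a Pearson r of 0.537, a description across genes, which are not independent replicates. They include the 48 and 54 members that reached 1 FPKM in 1 form only, among them these 3 short RNA loci. For those the filter makes both pairs share a sign, so part of this r is fixed in advance. The plot of the pairs shows that the called genes other than short RNA loci were all lower in both pairs.

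**Figure D1:**
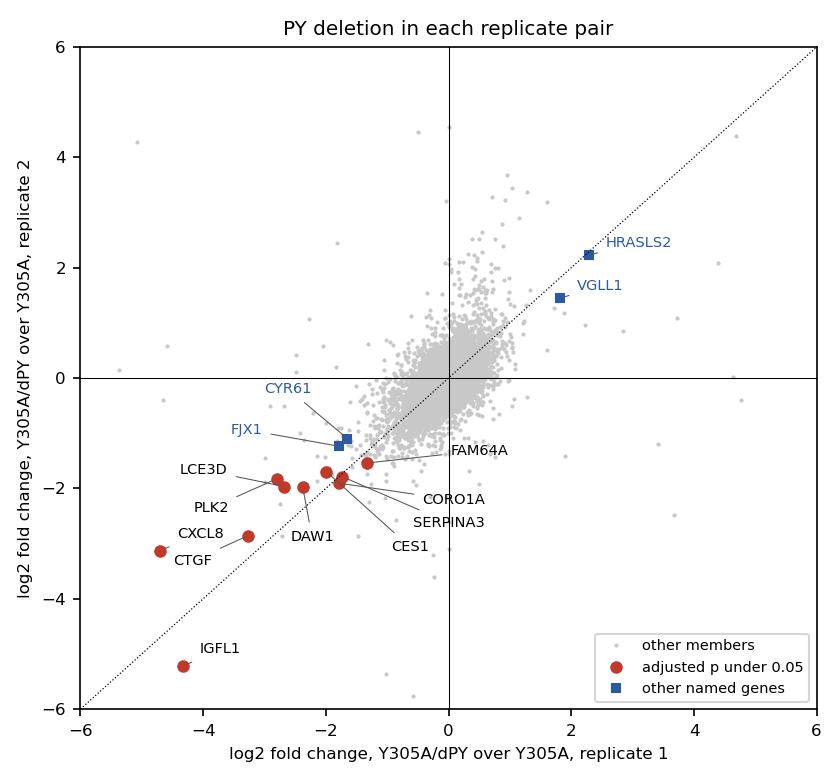
Log2 fold change of FPKM + 1, Y305A/dPY over Y305A, in replicate pair 1 (x axis) and pair 2 (y axis), 1 point per member, with genes at an adjusted p under 0.05 in red, 4 other named genes as blue squares and the rest in grey. IGFL1, CXCL8 and CTGF lie far to the lower left, and 10 members beyond an absolute value of 6 on either axis are not drawn.

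CTGF, which encodes a secreted matricellular protein and is a main target gene of YAP, fell. It stood at 213 and 184 FPKM in Y305A and at 21.2 and 24.6 in Y305A/dPY. The replicates of each form were close to each other and the forms did not overlap. The decrease was 8.33-fold on FPKM + 1 (log2 fold change -3.06 ± 0.15, limma adjusted p = 0.000976). For comparison, CTGF was at 1.12 and 6.54 FPKM in the Puro vector, 74.1 and 37.0 in YAP 5SA, 4712 and 4472 with MRTFB dN, and 2255 and 2078 once that form lost the motif. Y305A thus lay above YAP 5SA and far below MRTFB dN, and Y305A/dPY lay below YAP 5SA and above the vector. CTGF passed in each of 8 fits that left out 1 library (limma adjusted p of 0.00415 to 0.0147), and not with the MKL2 level as a covariate (-2.80, limma adjusted p = 0.221) or in a fit of all 14 libraries without the block (limma adjusted p = 0.248).

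The promoters of CTGF, IGFL1 and CXCL8, the 3 genes with the largest decreases outside short RNA loci, are shown because TEAD factors bind the letters GGAATG, searched on both strands (CATTCC on the other). They run from 250 bases before to 50 after the start, 5′ to 3′ on the strand of the gene, from RefSeq in GRCh38.p14, with matches in capitals. CTGF (CCN2 in RefSeq) lies at chr6:131951323-131951622 on the minus strand and holds 3 matches. IGFL1, at chr19:46229492-46229791 on the plus strand, and CXCL8, at chr4:73740319-73740618 on the plus strand, hold 0.
CTGF: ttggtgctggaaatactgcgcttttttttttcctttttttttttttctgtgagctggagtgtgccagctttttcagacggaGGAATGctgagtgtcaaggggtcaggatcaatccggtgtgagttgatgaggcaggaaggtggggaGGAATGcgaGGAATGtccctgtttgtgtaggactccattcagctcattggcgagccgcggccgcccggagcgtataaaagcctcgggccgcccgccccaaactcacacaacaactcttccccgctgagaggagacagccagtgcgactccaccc
IGFL1: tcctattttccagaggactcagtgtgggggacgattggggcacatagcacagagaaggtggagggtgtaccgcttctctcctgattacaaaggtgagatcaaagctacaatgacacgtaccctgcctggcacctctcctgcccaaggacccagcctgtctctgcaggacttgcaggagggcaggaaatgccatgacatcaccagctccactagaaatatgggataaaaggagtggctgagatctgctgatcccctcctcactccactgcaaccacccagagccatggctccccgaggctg
CXCL8: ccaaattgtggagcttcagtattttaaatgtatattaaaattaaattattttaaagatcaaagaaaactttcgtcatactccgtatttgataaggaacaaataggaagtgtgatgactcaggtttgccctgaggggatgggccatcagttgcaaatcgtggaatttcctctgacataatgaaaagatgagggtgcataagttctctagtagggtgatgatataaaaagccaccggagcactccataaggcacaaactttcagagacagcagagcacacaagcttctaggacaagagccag
Of all 35116 RefSeq promoters of this length 14.03% hold these letters, and of the 8962 members with a matched promoter 10.66%. Among the other genes that fell, the windows of LCE3D, PLK2, CORO1A and SERPINA3 hold 0, and DAW1, CES1 and FAM64A were not matched to a promoter. A match is a description of the letters and not a binding site.

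YAP/TEAD target genes as a list leaned lower. Of 35 listed genes 31 were members, of which CTGF passed the adjusted test, 12 stood lower at an unadjusted p under 0.05 (38.7%, against 9.18% of all members) and 0 higher, and 23 were lower in both pairs (74.2%, against 35.4%). Their median log2 fold change was -0.45, beside 0.003 over all members. In a fit of the 4 compared libraries alone, which leaves 1 residual degree of freedom, CTGF, CYR61, F3 and FJX1 passed as lower. In Y305A, CYR61, the matricellular relative of CTGF, stood at 929 and 655 FPKM, and in Y305A/dPY at 296 and 306. The forms did not overlap, and the log2 fold change of -1.37 ± 0.17 missed the threshold (limma adjusted p = 0.0807). FJX1, encoding a secreted protein related to Drosophila four-jointed, stood at 12.7 and 14.6 FPKM against 2.97 and 5.64 (-1.51 ± 0.19, limma adjusted p = 0.0807). F3, the tissue factor that starts coagulation, was at 194 and 242 FPKM against 80.9 and 110 (-1.20, limma adjusted p = 0.165). These genes were lower in both Y305A/dPY libraries than in either Y305A library. In YAP 5SA, CYR61 was at 478 and 266 FPKM, between its levels in the 2 forms or just below the lower of them.

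Other YAP/TEAD targets had small or unequal differences. ANKRD1, an ankyrin repeat protein gene of muscle, stood at 3.20 and 1.11 FPKM in Y305A and 0.759 and 0.836 in Y305A/dPY (-0.73, limma adjusted p = 0.276), against 982 and 639 in MRTFB dN. THBS1, encoding thrombospondin 1, was at 23.6 and 9.87 against 7.07 and 7.01 FPKM (-1.03, limma adjusted p = 0.332). Neither gene overlapped between the forms, and in both pair 1 differed more than pair 2. ANKRD1 is a member only through its Y305A libraries, so the filter fixed its lack of overlap. AMOTL2, an angiomotin relative that restrains YAP, was at 60.1 and 35.5 against 37.4 and 29.0 FPKM, and the receptor tyrosine kinase gene AXL at 3.10 and 7.66 against 1.49 and 5.03. Both overlapped between the forms and were lower within each pair. The EGFR ligand gene AREG had pairs of opposite sign, at 1.01 and 6.14 against 1.71 and 4.62 FPKM. Without Y305A replicate 1 the lower members at an unadjusted p under 0.05 were 6 and without Y305A/dPY replicate 1 they were 7. With the MKL2 level as a covariate they were 6, with 2 higher and a median of -0.03.

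**Figure D2:**
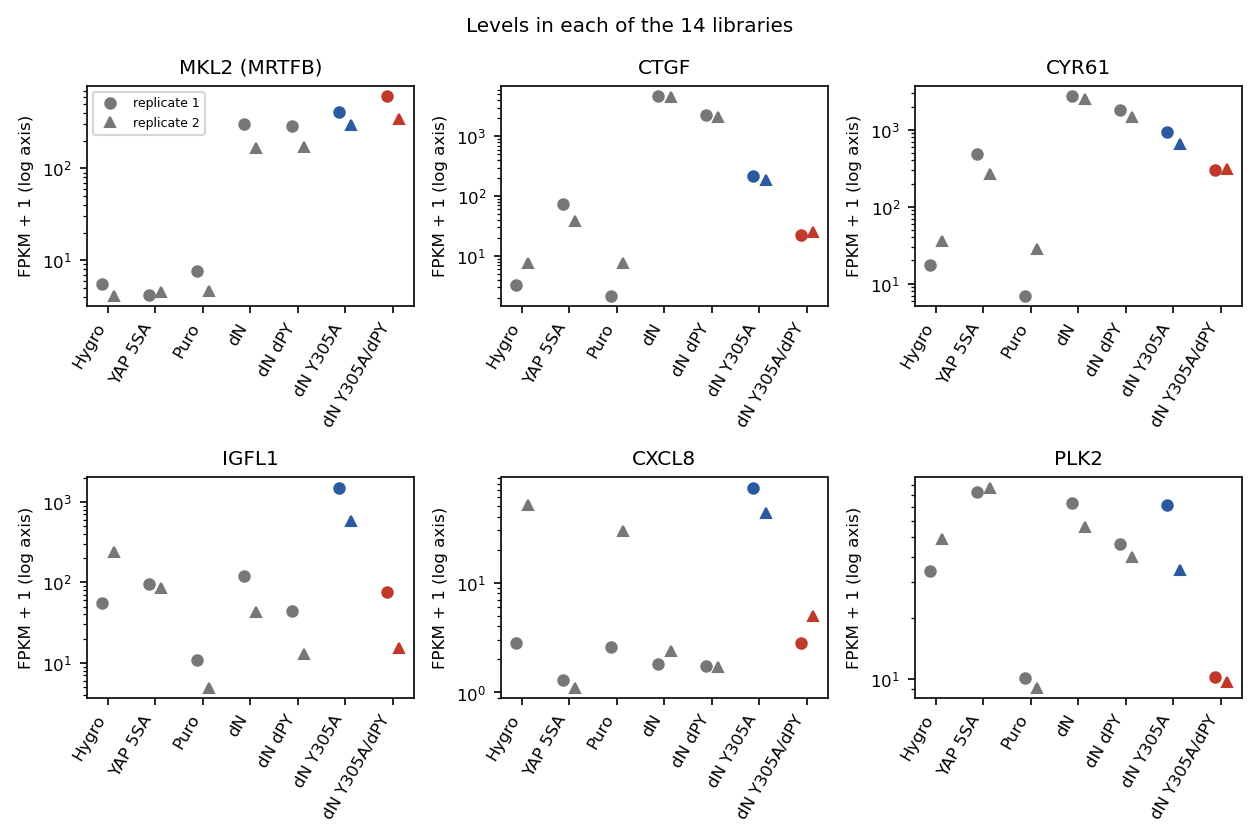
FPKM + 1 on a log axis for MKL2, CTGF, CYR61, IGFL1, CXCL8 and PLK2 in the 14 libraries, with circles for replicate 1, triangles for replicate 2, Y305A in blue, Y305A/dPY in red and the other groups in grey. In all panels but that of MKL2 both red points lie below both blue points, and CTGF spans from 1.12 to 4712 FPKM over the groups shown.

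IGFL1, encoding a small secreted protein of the insulin growth factor-like family, had the largest decrease outside short RNA loci. It stood at 1510 and 576 FPKM in Y305A and at 74.2 and 14.5 in Y305A/dPY. Replicate 1 was the higher in both forms, and the forms did not overlap (-4.77 ± 0.22, limma adjusted p = 0.000918). In other groups it stood at 119 and 41.7 FPKM (MRTFB dN), 94.4 and 85.4 (YAP 5SA), 55.1 and 239 (Hygro vector) and 9.99 and 3.91 (Puro vector), all below both Y305A libraries. It passed in each of the 8 fits that left out 1 library, with a log2 fold change of -5.13 to -4.41, but not without the block (limma adjusted p = 0.648), with the MKL2 level as a covariate (limma adjusted p = 0.0827) or in all 14 libraries without the block (limma adjusted p = 0.314).

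CXCL8, the neutrophil-attracting chemokine interleukin 8, fell from 72.9 and 42.7 FPKM in Y305A to 1.84 and 4.0 in Y305A/dPY (-3.92 ± 0.35, limma adjusted p = 0.0227). The forms did not overlap. In MRTFB dN, MRTFB dN dPY and YAP 5SA it lay between 0.104 and 1.41 FPKM, and in the vectors it differed between replicates, at 1.8 and 50.2 (Hygro) and 1.60 and 28.5 (Puro). The call was lost without MRTFB dN replicate 1 (limma adjusted p = 0.0769), MRTFB dN replicate 2 (limma adjusted p = 0.0767) or Y305A/dPY replicate 1 (limma adjusted p = 0.1). It was also lost with no filter, with the zeros of the empty parts kept, in all 14 libraries without the block (limma adjusted p = 1) and with the MKL2 level as a covariate (-2.53, limma adjusted p = 0.499).

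SERPINA3, the acute-phase protease inhibitor alpha-1-antichymotrypsin, stood at 218 and 885 FPKM in Y305A and at 65.0 and 255 in Y305A/dPY. It fell within each pair by nearly the same amount, while the groups overlapped because replicate 2 was the higher in both (-1.76 ± 0.18, limma adjusted p = 0.0377). The call was lost without any 1 of the 4 compared libraries (limma adjusted p of 0.186 to 0.255) and without the block (limma adjusted p = 1).

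PLK2, a polo-like kinase gene, fell from 71.0 and 33.5 FPKM to 9.31 and 8.74 (-2.32 ± 0.24, limma adjusted p = 0.0387). LCE3D, a late cornified envelope gene of stratified epithelium, fell from 9.31 and 9.81 FPKM to 0.611 and 1.77 (-2.32 ± 0.22, limma adjusted p = 0.0308). DAW1, which takes part in the assembly of ciliary dynein, fell from 9.80 and 9.96 FPKM to 1.08 and 1.78 (-2.18 ± 0.16, limma adjusted p = 0.00956). None of the 3 overlapped between the forms, and LCE3D was at most 0.451 FPKM in the 10 other libraries. The locus that holds CORO1A, an actin-binding coronin, together with LOC606724 fell from 25.1 and 18.1 FPKM to 6.54 and 4.09 (-1.85 ± 0.16, limma adjusted p = 0.0224). CES1, a carboxylesterase gene, fell from 4.02 and 3.24 FPKM to 0.259 and 0.309 (-1.85 ± 0.16, limma adjusted p = 0.0201). FAM64A, a gene expressed in dividing cells, fell from 4.61 and 6.73 FPKM to 1.23 and 1.66 (-1.43 ± 0.14, limma adjusted p = 0.0308). These 3 also did not overlap between the forms, and CES1 is a member only through its Y305A libraries, so it had to differ.

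These calls rest on different numbers of libraries. Of the 8 fits that left out 1 library DAW1 passed in 6, LCE3D in 3, CES1 and the CORO1A locus in 2, PLK2 in 1 and FAM64A in 0, with limma adjusted p-values up to 0.098 for DAW1, 0.173 for LCE3D and the CORO1A locus, 0.164 for CES1, 0.192 for PLK2 and 0.255 for FAM64A. DAW1 was lost without Y305A replicate 1 or Y305A/dPY replicate 1, and PLK2 passed without Y305A replicate 2. Without the block DAW1 passed (limma adjusted p = 0.0396), and LCE3D (0.145), PLK2 (0.338), the CORO1A locus (0.252), CES1 (0.0759) and FAM64A (0.535) did not. With the MKL2 level as a covariate none of the 10 calls outside short RNA loci passed. That fit leaves 2 residual degrees of freedom against 3. All 10 log2 fold changes stayed negative in it, from -5.25 (IGFL1) to -1.45 (PLK2). A lost call there cannot tell lower precision from a part of the MKL2 level, which was not tested. In all 14 libraries without the block LCE3D and CES1 alone passed (limma adjusted p = 0.0246 for both).

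Cytokine and chemokine genes, which recruit and activate immune cells, leaned lower. Of 18 listed 11 were members, of which CXCL8 passed, 5 stood lower at an unadjusted p under 0.05 (45.5%, against 9.18% of all members) and 0 higher, and 10 were lower in both pairs (90.9%, against 35.4%). The median log2 fold change was -0.85, and -0.17 in MRTFB dN dPY against MRTFB dN. In MRTFB dN the genes CXCL8, CXCL1 and IL1B were at most 1.71 FPKM, which leaves little room for a decrease, while IL1A stood at 5.32 and 8.21. CCL20, a chemokine for cells with the receptor CCR6, was at 20.4 and 186 FPKM in Y305A and at 2.27 and 24.7 in Y305A/dPY (-2.79, limma adjusted p = 0.119). CXCL1, another neutrophil attractant, was at 22.3 and 124 against 2.46 and 24.7 FPKM (-2.52, limma adjusted p = 0.179). IL1B, the inflammatory cytokine interleukin 1 beta, was at 3.67 and 58.7 against 0.682 and 7.21 FPKM (-2.17, limma adjusted p = 0.265). In these 3 genes replicate 2 was far above replicate 1 in both forms, so the groups overlapped although each pair was lower. LIF, a cytokine of the interleukin 6 family, was at 228 and 288 against 63.5 and 130 FPKM and did not overlap (-1.48, limma adjusted p = 0.119). Without Y305A replicate 2 the median of the list was -0.14, with 7 of 11 below 0. Of 7 leukocyte markers PTPRC, CD3E and ITGAM were at most 0.0433 FPKM in all 4 libraries, and the 6 with a locus of their own summed to 30.6 and 149 FPKM in Y305A and 33.4 and 124 in Y305A/dPY, nearly all of it CD14. In bulk RNA fewer cells of a kind and less RNA per cell cannot be told apart.

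Mitosis genes stood lower without the PY motif. Of 24 listed 23 were members. None passed the adjusted test, 22 stood lower at an unadjusted p under 0.05 (95.7%, against 9.18% of all members) and 20 were lower without overlap between the forms (87.0%, against 15.4%). The median log2 fold change was -0.98. In a fit of the 4 compared libraries alone, which leaves 1 residual degree of freedom, 11 of the 23 passed as lower. CDC20, which activates the anaphase-promoting complex, was at 18.4 and 37.4 FPKM in Y305A and at 6.70 and 10.4 in Y305A/dPY (-1.54, limma adjusted p = 0.12). UBE2C, the ubiquitin-conjugating enzyme of that complex, was at 19.0 and 40.1 against 7.23 and 14.8 FPKM (-1.33, limma adjusted p = 0.208). BUB1, a kinase of the spindle checkpoint, was at 5.28 and 8.91 against 1.81 and 3.62 FPKM (-1.13, limma adjusted p = 0.0807). In each of these genes both Y305A/dPY libraries lay below both Y305A libraries. TOP2A, the topoisomerase of dividing cells, was at 7.37 and 15.6 against 2.80 and 5.83 FPKM, and the proliferation marker MKI67 at 5.15 and 11.1 against 1.88 and 4.22. TPX2, a spindle assembly factor, was the member that missed an unadjusted p of 0.05, at 42.1 and 39.2 against 42.1 and 22.5 FPKM. With 1 library left out 14 to 21 members were lower at an unadjusted p under 0.05, the fewest without Y305A/dPY replicate 2, and without the block 15 were.

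DNA replication genes leaned the same way by smaller amounts. Of 23 members 0 passed, 13 stood lower at an unadjusted p under 0.05 (56.5%, against 9.18% of all members), 19 were lower without overlap (82.6%, against 15.4%), and the median was -0.55. RRM2, the regulated subunit of ribonucleotide reductase, was at 23.0 and 31.7 FPKM in Y305A and at 9.89 and 11.6 in Y305A/dPY (-1.26, limma adjusted p = 0.226). GINS2, a subunit of the replicative helicase, was at 4.77 and 8.31 against 3.22 and 1.88 FPKM (-1.07, limma adjusted p = 0.285). The helicase subunit genes MCM2, MCM3, MCM4, MCM5, MCM6 and MCM7 had log2 fold changes between -0.91 and -0.43, and none overlapped. The 13 became 1 without Y305A replicate 2, 2 without Y305A/dPY replicate 2, 5 without Y305A/dPY replicate 1 and 7 without the block. In MRTFB dN dPY against MRTFB dN, which are other libraries, the medians were -1.29 for the mitosis and -1.0 for the replication list.

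Interferon response genes, which cells switch on after sensing foreign nucleic acid, stood higher in Y305A/dPY, with unequal replicates. All 22 members of 24 listed were higher in both pairs, as were 35.8% of all members, and 0 passed. The forms did not overlap for 17 (77.3%, against 12.4% higher among all members), and 8 stood higher at an unadjusted p under 0.05 (36.4%, against 4.9%). The median log2 fold change was 1.29, with 0.43 in pair 1 and 2.14 in pair 2. IFI6, an interferon-induced mitochondrial protein gene, was at 1597 and 239 FPKM in Y305A and at 3076 and 3054 in Y305A/dPY (2.31 ± 1.29, limma adjusted p = 0.47). BST2, encoding a protein that tethers budding virus, was at 185 and 20.1 against 452 and 216 FPKM (2.32 ± 1.25, limma adjusted p = 0.453). In both genes Y305A replicate 2 was the low library, and the Hygro vector varied more, with IFI6 at 2660 and 10.2 FPKM. Without Y305A/dPY replicate 2 the median of the list was 0.26 with 5 members below 0, without Y305A/dPY replicate 1 it was 2.37, and without Y305A replicate 2 or without the block 1 member had an unadjusted p under 0.05. In MRTFB dN dPY against MRTFB dN the pairs went opposite ways, with a median of 0.84 in pair 1 (20 of 21 members with a value above 0) and -0.87 in pair 2 (21 of 22 below 0), so the fitted median of -0.08 does not describe either pair.

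**Figure D3:**
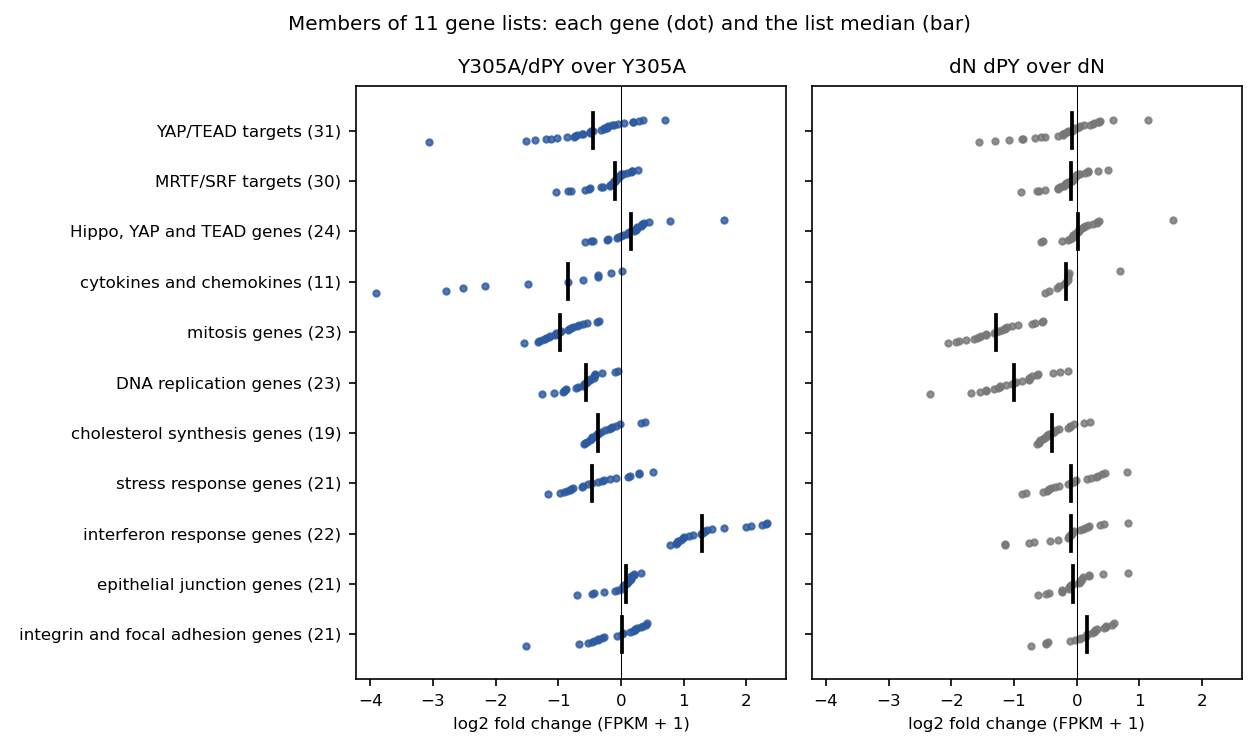
Log2 fold change of FPKM + 1 for each member (dot) of 11 gene lists with the list median (bar), in Y305A/dPY over Y305A (left) and MRTFB dN dPY over MRTFB dN (right). Mitosis genes have medians of -0.98 and -1.29, interferon response genes of 1.29 and -0.08 (the latter from pairs of opposite sign), and YAP/TEAD targets of -0.45 and -0.07.

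Stress response genes, which answer amino acid shortage and misfolded protein, had 9 of 21 members lower (42.9%, against 9.18% of all members) and 1 higher (4.76%, near the 4.9% of all members) at an unadjusted p under 0.05. The list had 0 members past the adjusted test and a median of -0.46. TRIB3, a pseudokinase gene induced by ATF4, was at 70.0 and 54.8 FPKM in Y305A and at 29.6 and 25.0 in Y305A/dPY (-1.16 ± 0.16, limma adjusted p = 0.107). SHMT2, an enzyme of mitochondrial serine metabolism, was at 87.2 and 78.3 against 47.6 and 42.7 FPKM (-0.86, limma adjusted p = 0.107). ATF4, the factor that drives such genes, was at 201 and 199 against 137 and 154 FPKM (-0.46, limma adjusted p = 0.226). None of the 3 overlapped. CHAC1, a glutathione-degrading enzyme gene, was at 19.2 and 6.27 against 7.0 and 3.72 FPKM and overlapped. With the MKL2 level as a covariate 1 member was lower and 2 higher, and without the block 4 were lower.

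Cholesterol synthesis genes had 6 of 19 members lower at an unadjusted p under 0.05 (31.6%, against 9.18% of all members), 0 higher, 0 past the adjusted test and a median of -0.37, against -0.40 in MRTFB dN dPY over MRTFB dN. FDPS, the farnesyl diphosphate synthase, was at 871 and 895 FPKM in Y305A and at 648 and 526 in Y305A/dPY (limma adjusted p = 0.206). ACAT2, an acetyltransferase at the start of the pathway, was at 64.8 and 46.4 against 54.0 and 24.4 FPKM and overlapped. Without the block 0 members had an unadjusted p under 0.05, and without Y305A replicate 2 there was 1.

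MRTF/SRF target genes differed by small amounts between the 2 forms and also leaned lower. Of 38 listed 30 were members, 5 stood lower at an unadjusted p under 0.05 (16.7%, against 9.18% of all members) and 0 higher. None passed, and the median was -0.10. In both pairs 16 were lower (53.3%, against 35.4% of all members) and 3 higher (10%, against 35.8%). ACTA2, the smooth muscle actin, was at 12.2 and 16.6 FPKM in Y305A and at 9.24 and 17.7 in Y305A/dPY, against 52270 and 30940 in MRTFB dN and 4.26 and 7.25 in the Puro vector. The locus with TAGLN (transgelin), PAFAH1B2 and SIDT2 was at 34.98 and 21.6 against 28.9 and 23.0 FPKM, and at 41590 and 22310 in MRTFB dN. Both loci overlapped between the forms and were orders of size below MRTFB dN. VCL (vinculin) was at 99.5 and 81.2 against 80.2 and 78.7 FPKM, and TPM1 (tropomyosin 1) at 45.5 and 21.1 against 37.9 and 24.5. ACTB, the cytoplasmic beta-actin, was at 5088 and 2822 against 5035 and 2850 FPKM. MICAL2, which oxidises nuclear actin and thereby frees MRTF, had the largest difference of the list, at 22.4 and 19.0 against 9.83 and 9.26 FPKM without overlap (-1.04 ± 0.13, limma adjusted p = 0.0807). TAGLN2, a transgelin relative, was at 832 and 508 against 535 and 246 FPKM, and FLNA (filamin A), which crosslinks actin, at 427 and 349 against 267 and 251 (limma adjusted p = 0.263). The smooth muscle gene ACTG2 and the myosin light chain gene MYL9 were under the expression limit. Without the block 2 members of the list stood lower at an unadjusted p under 0.05.

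The genes of the factors themselves did not pass. SRF was at 7.70 and 7.62 FPKM in Y305A and at 8.34 and 6.74 in Y305A/dPY, and MKL1, which encodes MRTFA, at 17.2 and 15.2 against 15.3 and 17.9. Among the TCF factors, which share SRF with MRTF, ELK1 was at 17.4 and 16.4 against 27.6 and 21.0 FPKM (0.49, limma adjusted p = 0.263) and ELK3 at 24.7 and 12.8 against 25.6 and 15.8. ELK4, in a locus with SLC45A3, was at 12.3 and 18.3 against 9.99 and 15.0 FPKM. ELK1 did not overlap between the forms, and the others did. YAP1 was at 39.0 and 18.3 against 50.9 and 26.7 FPKM (0.45, limma adjusted p = 0.547) and WWTR1, the gene of the YAP relative TAZ, at 8.71 and 5.12 against 9.86 and 6.69. TEAD4 was at 17.1 and 13.1 against 12.8 and 8.42 FPKM (-0.48, limma adjusted p = 0.226), and TEAD1, TEAD2 and TEAD3 had log2 fold changes of 0.32, -0.07 and 0.25.

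Of 24 Hippo, YAP and TEAD genes 2 stood lower (8.33%, near the 9.18% of all members) and 3 higher (12.5%, against 4.9%) at an unadjusted p under 0.05. The median was 0.16. VGLL1, a cofactor that binds TEAD on the surface that YAP uses, was at 1.76 and 0.340 FPKM in Y305A and at 8.78 and 2.66 in Y305A/dPY (1.64 ± 0.24, limma adjusted p = 0.119). AMOT, the angiomotin gene, was at 2.70 and 1.40 against 4.99 and 3.34 FPKM (0.78, limma adjusted p = 0.189). VGLL4, a cofactor that opposes YAP on TEAD, was at 11.3 and 8.83 against 14.4 and 11.4 FPKM, and WWC1 (KIBRA), an upstream activator of the kinases, at 55.8 and 41.7 against 38.7 and 31.9. None of the 4 overlapped between the forms. Over the list 12.5% were lower and 25% higher without overlap, against 15.4% and 12.4% of all members.

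No gene outside short RNA loci passed as higher. HRASLS2, a phospholipase gene, was at 0.970 and 0.366 FPKM in Y305A and at 8.63 and 5.41 in Y305A/dPY (2.26 ± 0.36, limma adjusted p = 0.116). APOL1, an interferon-inducible apolipoprotein gene, was at 13.8 and 10.5 against 27.9 and 30.0 FPKM (1.20, limma adjusted p = 0.115). ATP6V0A4, a proton pump subunit gene, was at 3.55 and 1.87 against 8.58 and 6.10 FPKM (1.19, limma adjusted p = 0.115). These and VGLL1 had the largest values among the 10 genes listed by smallest p, and none overlapped, but HRASLS2 is a member only through its Y305A/dPY libraries. The locus of FKBP5, a glucocorticoid-induced cochaperone, with LOC285847 was at 58.7 and 54.5 against 101 and 99.0 FPKM (0.81, limma adjusted p = 0.115). BCL9L, a coactivator of beta-catenin, was at 110 and 131 against 189 and 247 FPKM (0.84, limma adjusted p = 0.132). P3H2, a collagen prolyl hydroxylase gene, was at 9.81 and 11.5 against 17.7 and 20.6 FPKM (0.79, limma adjusted p = 0.116). The 3 others were TMEM2, CTSO and 1 of the 2 loci named CA11, with log2 fold changes of 0.99, 0.94 and 1.0 and limma adjusted p-values of 0.142, 0.119 and 0.12.

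Other single genes that stood lower without passing belong to no one list. CD44, the hyaluronan receptor, was at 105 and 108 FPKM in Y305A and at 45.1 and 57.1 in Y305A/dPY (-1.05, limma adjusted p = 0.0807). IL31RA, a cytokine receptor gene, was at 5.37 and 4.08 against 1.75 and 0.933 FPKM (-1.30, limma adjusted p = 0.0757). Neither overlapped between the forms. CAV1, the scaffold of caveolae, was at 831 and 254 against 279 and 92.1 FPKM, lower within each pair and overlapping (-1.51, limma adjusted p = 0.156), and its neighbour CAV2 at 66.1 and 28.0 against 38.9 and 18.3. GDF15, a stress cytokine on the p53 list, was at 25.3 and 39.4 against 7.49 and 18.3 FPKM, and did not overlap (-1.35, limma adjusted p = 0.206). The higher of the 2 loci named MYC, the growth-promoting transcription factor, was at 72.6 and 126 against 35.1 and 63.2 FPKM, also without overlap (-1.0, limma adjusted p = 0.253). TNC, the matrix protein tenascin C, in a locus with LOC101928748, was at 3.70 and 4.02 against 1.55 and 1.71 FPKM (-0.89, limma adjusted p = 0.124). VIM (vimentin) was at 11.1 and 7.18 against 7.11 and 1.24 FPKM (limma adjusted p = 0.389), and the locus of S100A2, S100A3 and S100A4 at 4594 and 4808 against 2801 and 1742 (limma adjusted p = 0.193). These 3 loci did not overlap either.

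The remaining lists are given by their medians, beside 0.003 over all members, and by members lower and higher at an unadjusted p under 0.05. Over all members 9.18% were lower and 4.9% higher at that limit. The medians were 0.016 for 21 integrin and focal adhesion genes (5 lower, 23.8%, and 4 higher, 19%) and -0.045 for 16 extracellular matrix genes (4, 25%, and 1, 6.25%). They were 0.08 for 21 epithelial junction genes (2, 9.52%, and 0) and -0.68 for 6 mesenchymal genes (3, 50%, and 0). The median was -0.16 for 19 hypoxia and glycolysis genes (4, 21.1%, and 0) and 0.045 for 18 p53 targets (3, 16.7%, and 0). It was 0.08 for 17 AP-1 and immediate early genes (2, 11.8%, and 1, 5.88%). For 12 TGF-beta and SMAD targets it was 0.28 (2, 16.7%, and 1, 8.33%), and for 8 EGFR ligands and receptors 0.15 (0 and 0). None of these 9 lists had a member past the adjusted test. With 1 library left out the medians ran from -0.135 to 0.166 for the junction, -0.129 to 0.016 for the integrin, -0.113 to 0.228 for the p53 and -0.128 to 0.083 for the AP-1 list, so their signs rest on single libraries, and 0 to 5 hypoxia genes were lower at an unadjusted p under 0.05. Of 16 squamous differentiation genes, LCE3D passed, 3 stood lower (18.8%) and 0 higher, and the median was -0.09 (-0.271 to 0.016 with 1 library left out). Among their members, the gap junction gene GJB2 was at 31.6 and 23.2 FPKM in Y305A and at 22.1 and 11.9 in Y305A/dPY, and the glycolytic enzyme gene ENO1 at 2068 and 1894 against 1544 and 1279. ID2, an inhibitor of differentiation, was at 0.438 and 0.485 against 1.27 and 1.48 FPKM (0.70, limma adjusted p = 0.179). None of these 3 genes overlapped between the forms, but ID2 is a member only through its Y305A/dPY libraries, so it had to differ.

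The 10 basal epithelial markers had a median of -0.34, with 2 lower (20%, against 9.18% of all members) and 0 higher at an unadjusted p under 0.05. The median was -0.007 without Y305A replicate 1 and 0.141 with the MKL2 level as a covariate, and without the block 0 were lower. The 7 with a locus of their own summed to 13600 and 5045 FPKM in Y305A and to 8727 and 4390 in Y305A/dPY. KRT17, a basal keratin, made much of this sum, at 6700 and 955 against 3505 and 735 FPKM, and was higher in replicate 1 of each form. Of 10 luminal markers 8 were members, 0 stood lower and 2 higher (25%, against 4.9% of all members), and the median was 0.13. ELF3, an epithelial transcription factor, was at 175 and 82.3 FPKM in Y305A and at 279 and 174 in Y305A/dPY (0.87, limma adjusted p = 0.185), and MUC1, a membrane mucin, at 186 and 213 against 302 and 468 (limma adjusted p = 0.306). The luminal markers summed to 5486 and 33120 FPKM in Y305A and to 5170 and 26340 in Y305A/dPY, with PGR at 0 in all 4 libraries. KRT8 and KRT18 were listed at 0 in replicate 1 of both forms. In replicate 2 they stood at 12550 and 16610 FPKM in Y305A and at 9623 and 12150 in Y305A/dPY, most of the sum. Those zeros can be failed estimates, so the sums cannot be compared between replicates, and the list median takes the zeros as values. Endothelial PECAM1 was at most 0.0505 FPKM, while the endothelial marker CDH5 stood at 8.30 and 4.90 in Y305A and at 14.6 and 4.51 in Y305A/dPY. The fibroblast markers DCN and LUM were at most 0.29 FPKM, and COL1A1 stood at 0.769 and 2.18 against 1.12 and 2.98. The part of any of these markers in the results above was not tested.

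The same motif was removed in the SRF-binding form, in MRTFB dN dPY against MRTFB dN, with no library shared with the comparison above. There 2 members passed (0.0178%), SMCO4 higher, at 71.3 and 62.2 FPKM without the motif against 21.7 and 19.7 with it, and FAM64A lower, at 0.361 and 0.691 against 3.88 and 4.99. No member passed there without the block, in all 14 libraries, with a pseudocount of 0.1, with the MKL2 level as a covariate, with the zeros of the empty parts kept or without MRTFB dN replicate 2. SMCO4 stood at 1.97 and 1.79 FPKM in Y305A and 1.55 and 1.21 in Y305A/dPY. Over the 9666 members with values in all 8 libraries the log2 fold changes of the 2 comparisons correlated with Pearson's r at 0.235 and Spearman's rho at 0.319, a description across genes. The 10 genes called here outside short RNA loci had unlike values on removal of the motif in MRTFB dN. By the fitted value FAM64A stood at -1.83 ± 0.14, IGFL1 at -1.58 ± 0.22 (limma adjusted p = 0.0979), SERPINA3 at -1.44 ± 0.18 (limma adjusted p = 0.0897), CTGF at -1.08 ± 0.15 (limma adjusted p = 0.0979) and PLK2 at -0.58 ± 0.24 (limma adjusted p = 0.548). CXCL8 at -0.28 ± 0.35 and DAW1 at -0.02 ± 0.16 lay within 1 SE of 0. LCE3D, CES1 and the CORO1A locus were at most 0.405 FPKM in those libraries, which leaves little to compare. Of all members with a value 52.0% lay below 0 there.

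The difference between the 2 removals passed for 3 members (0.0267%), all of them the short RNA loci below, whose zeros and place among the members fix that outcome. For CTGF it was -1.98 ± 0.21 (limma adjusted p = 0.0929), for IGFL1 -3.19 ± 0.32 (limma adjusted p = 0.0804), for DAW1 -2.16 ± 0.22 (limma adjusted p = 0.0853) and for CXCL8 -3.64 ± 0.49 (limma adjusted p = 0.178). None of these 4 passed, so the larger log2 decrease without SRF binding was not shown for them. CXCL8 and DAW1 were also low in MRTFB dN, so their differences cannot tell an absent effect from a low start. P3H2, YAF2, a partner of Polycomb proteins, and the locus of FAM188B and INMT had differences of 1.28, 1.49 and 1.67 with limma adjusted p-values of 0.191, 0.276 and 0.278. For these 3 the fitted values were 0.79, 0.41 and 0.20 without SRF binding and -0.49, -1.08 and -1.47 with it.

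**Figure D4:**
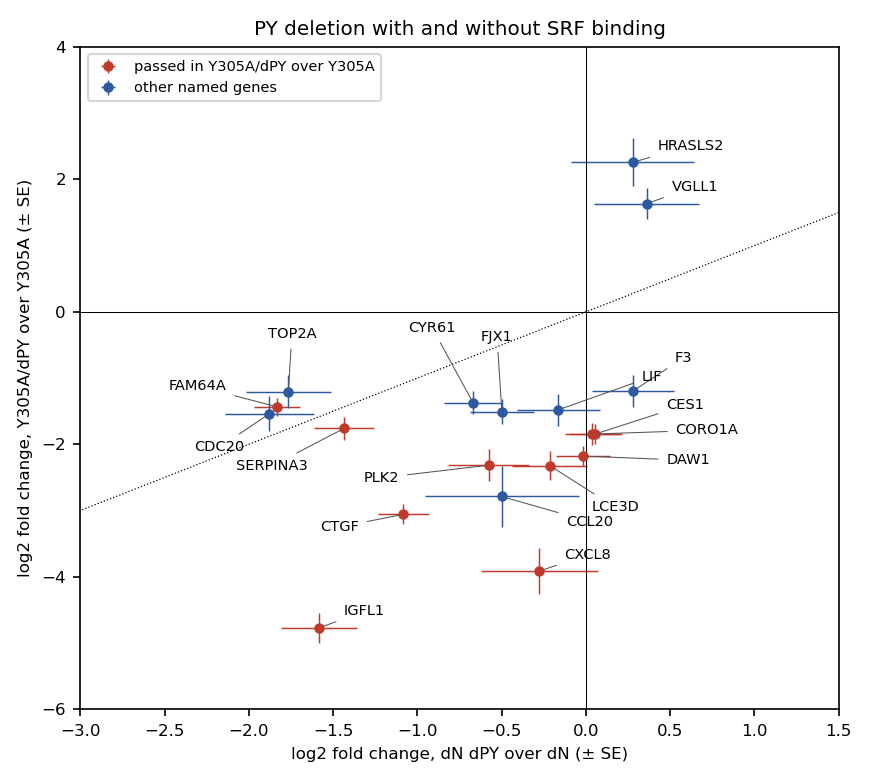
Log2 fold change of FPKM + 1 with its SE on removal of the PY motif in MRTFB dN (x axis) and in MRTFB dN Y305A (y axis), for the 10 genes that passed in the latter outside short RNA loci (red) and 9 other named genes (blue). CTGF lies at -1.08 and -3.06 and IGFL1 at -1.58 and -4.77, below the line of equal change, and FAM64A lies at -1.83 and -1.43.

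Genes that differ with YAP 5SA were taken as a list of their own. On FPKM + 1, 258 members (2.3%) were at least 2-fold higher in both YAP 5SA libraries than in both Hygro vector libraries and 451 (4.02%) at least 2-fold lower, libraries that the comparison does not use. Of the 258, 2 fell in Y305A/dPY (CTGF and DAW1), 53 stood lower (20.5%, against 9.18% of all members) and 21 higher (8.14%, against 4.9%) at an unadjusted p under 0.05, and the median log2 fold change was -0.08. DAW1 was at 8.38 and 6.82 FPKM in YAP 5SA and at 0.485 and 0.890 in the Hygro vector. Of the 451, 2 fell (CXCL8 and SERPINA3), and the median was 0.008. At the same limit 46 stood lower (10.2%, near the 9.18% of all members) and 43 higher (9.53%, against 4.9%).

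Short RNA loci make up 291 of the members and hold the 3 other calls. Each of the 3 is a member only through the form in which it has values, and the zeros in the other MRTFB libraries fix its call. For such loci FPKM divides by a short length, so few fragments can give a large value. MIR4492, a microRNA locus, was listed at 0 in both Y305A libraries and at 12070 and 18290 FPKM in Y305A/dPY, and elsewhere at 4148 in YAP 5SA replicate 1 and 0 in the rest. SNORD9, a small nucleolar RNA locus, was listed at 0 in Y305A and at 250 and 189 FPKM in Y305A/dPY, and elsewhere at 172 in Hygro vector replicate 2 and 0 in the rest. SNORD88A, another such locus, was at 513 and 282 FPKM in Y305A and listed at 0 in Y305A/dPY, in MRTFB dN and in MRTFB dN dPY. The share of short RNA in the FPKM sum was 61.6% and 55.8% in Y305A and 50.4% and 43.0% in Y305A/dPY.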

How the data were processed

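RNA of MCF-10A cells was sequenced in 14 libraries, 2 for each of 7 groups. The deposited table holds FPKM per locus, which the authors made on the build hg19 using the tools Cuffnorm, Cufflinks, TopHat and Bowtie, per the submitters' processing notes; versions are not given in the sources used here. It holds no counts, so no count model was run and no intervals for counting error can be given. Relative depth was read from the most frequent ratio of loci under 0.5 FPKM. Reads of a locus with several gene names (915 members) cannot be told apart, and 731 members share their name with another locus.

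Members were the loci with a gene name that reached 1 FPKM in 2 or more of the 4 compared libraries. log2(FPKM + 1) was fitted with limma 3.58.1 in R 4.3.3 (intensity trend, two-sided, Benjamini-Hochberg adjustment over all 11230 members, threshold 0.05) on the 8 MRTFB libraries with the replicate number as a block, which leaves 3 residual degrees of freedom, and 2 for members in the empty parts of MRTFB dN dPY replicate 1. Across 9666 genes the difference of replicate 1 and 2 correlated between groups with a Pearson r of 0.342 to 0.747, and 0.747 between Y305A and Y305A/dPY, so the numbers pair the samples; this rests on the data, as the labels give only numbers. Tables were handled with Python 3.11.15, pandas 2.3.3 and numpy 2.4.6. The forms do not overlap where both values of 1 form lie above both of the other.

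Genes were named by rule: the SRF, MRTF, YAP, TAZ and TEAD genes; up to 10 in each direction with the largest change among those called, averaging 3 FPKM or more over the 4 libraries, with both pairs in 1 direction and no overlap, short RNA loci left out, filled up by smallest p; up to 4 called or otherwise 2 with the largest change per list; known YAP and SRF targets; and the 5 in each direction with the smallest p for the difference between the deletions. The other genes named, among them FJX1, F3, BUB1, TOP2A, MKI67, TPX2, LIF, CCL20, CXCL1, IL1B, SHMT2, ATF4, ACTB, FLNA, VGLL4, WWC1, SMCO4 and the MCM genes, were chosen after their values were seen. Members and lists were chosen with earlier results of these data known. Some single genes of the lists are not reported here. Alternatives are given in the closing section.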

Additional observations from a re-analysis of the deposited data

Results flagged for a closer look

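By limma's test of the difference itself on log2(FPKM + 1), 3 short RNA loci passed for a difference between removing the PY motif in the SRF-binding-deficient and in the SRF-binding form of MRTFB, and nothing is read from it. The difference was 13.86 for MIR4492 and 7.77 for SNORD9, which have values in both Y305A/dPY libraries and a listed 0 in the 6 other MRTFB libraries. It was -8.57 for SNORD88A, with values in both Y305A libraries and a listed 0 in the 6 others. Each is a member only through the 2 libraries in which it has values, so that filter and the constant zeros fix the outcome, and a listed 0 can be a failed estimate. With a limit of 1 FPKM in all 4 libraries no difference passed. These sizes depend on the pseudocount and are no fold changes.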

How the results depend on the processing

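Against 11 members lower and 2 higher, the fit without the replicate block gave 4 lower, all 14 libraries without the block 2 lower and 0 higher, no filter 4 lower, the MKL2 level as covariate 1 lower, and the zeros of the empty parts kept 3 lower. The 4 compared libraries alone, which leave 1 residual degree of freedom, gave 119 lower and 29 higher. Of these 7 and 6 were short RNA loci, and the 13 calls were among them. In that fit 11 of 23 mitosis genes and 4 of 31 YAP/TEAD targets passed as lower. So did 4 of 11 cytokine and chemokine genes and 4 of 21 stress response genes. Of 24 Hippo, YAP and TEAD genes VGLL1 passed as higher, while the interferon response and cholesterol synthesis lists had 0 either way. A limit of 1 FPKM in all 4 libraries, or leaving out short RNA loci, gave 0 higher. Leaving out 1 library gave 4 to 11 lower and 2 to 4 higher. The difference between the deletions was negative for 1 member and positive for 2, all short RNA loci. All 14 libraries, the limit of 1 FPKM in all 4 and the loss of short RNA loci each gave 0 and 0, no filter gave 4 positive, and leaving out 1 library gave 1 to 4 negative and 2 to 4 positive.

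Over all alternatives the 13 called loci gave 239 results, of which 150 kept the call, 89 lost it and 0 changed sign. Without the block 6 of the 13 calls were kept, and the cause was not tested. These genes, none of them called, changed sign. With the MKL2 covariate the log2 fold changes were AREG -0.175, CHAC1 0.295, COL1A1 -0.097, the FAM188B locus -0.283, KRT17 0.734, TEAD2 0.007, THBS1 0.558, TPM1 0.44 and VCL 0.15. Leaving out 1 library gave ranges of -0.752 to 0.474 for ACTA2, -0.483 to 0.568 for AREG, -0.014 to 0.347 for ELK3, -1.347 to 0.035 for KRT17, -0.109 to 0.177 for MKL1, -0.327 to 0.149 for the TAGLN locus, -0.149 to 0.094 for SRF, -0.267 to 0.211 for TPM1 and -0.036 to 0.527 for WWTR1. Median-of-ratios scaling moved the median of all genes by 0.02. With 2 libraries a group and no counts, small differences and low genes cannot be resolved.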
